A study of Mus musculus with 4 samples.

Results

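A set of 10 genes of protein folding in the endoplasmic reticulum (ER) was read in adrenal glands of mice that lack the V1a vasopressin receptor and of wild-type mice: Hspa5, Hsp90b1, Calr, Pdia4, Pdia6, Hyou1, Dnajb9, Herpud1, Sdf2l1 and Manf. They were taken by name, as every probe set that the platform annotation assigns to exactly 1 of these genes, which gave 20 of 45037 probe sets. The knockout group (KO) held glands of 2-month-old V1a knockout males and the wild-type group (WT) glands of wild-type males of the same age, with 2 arrays per genotype and 1 array per sample. The labels give neither the strain nor the deleted stretch of the gene, and they do not state whether each array is a different animal. The p-values therefore cover only array-to-array spread, which could be purely technical. Values are log2 expression units, and every difference is KO minus WT, so a difference of 1 is a doubling of the signal. Pairs of values give replicate 1 and then replicate 2.

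The ER is where secreted and membrane proteins fold. Hsp70- and Hsp90-type chaperones hold unfolded chains, protein disulfide isomerases form and rearrange disulfide bonds, and lectin chaperones hold glycoproteins until they are folded. When unfolded protein builds up, the sensors Ern1, Eif2ak3 and Atf6 are released from the chaperone encoded by Hspa5, and the transcription factors that follow raise the chaperone genes. This circuit is the unfolded protein response. In the adrenal gland the cortex has an extensive smooth ER for steroid synthesis, and chromaffin cells of the medulla fold neuropeptides and granins.

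A sequence known from promoters of several of these genes is the ER stress element (ERSE), in which a box bound by NF-Y and a box bound by Atf6 stand a fixed distance apart. It was searched as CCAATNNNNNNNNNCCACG on both strands in RefSeq promoter windows of the mouse assembly GRCm38.p6, which run from 250 bases before to 50 bases after each gene start. The table held a window for 8 of the 10 genes, all except Hyou1 and Manf. The motif was found in 4 of these 8 (Hspa5, Hsp90b1, Calr and Pdia6), against 39 of 32851 windows in the table, or 0.119%. The element was already known from several of these genes, so these shares do not test an enrichment. Its variant ERSE-II, searched as ATTGGNCCACG on both strands, was found in Herpud1 and in 0.0365% of all windows. The letters TGACGTGG, the core of the element bound by Xbp1, were in 0 of the 8 windows and in 0.676% of all. The box CCAAT alone was in all 8 windows and in 37.4% of all, and the box CCACG alone in all 8 and in 32.8% of all. G and C made up 60.3% to 70.0% of the bases in the 8 windows, against a promoter median of 52.7%. The part of base composition in these shares was not tested. Both boxes are part of every ERSE, and ATTGG in ERSE-II is the first box read on the other strand. A match is a match of letters and does not show that a factor is bound there.

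The 6 matches are shown to let the shared spacing be read off, each 5′ to 3′ on the strand of the motif, with the fixed letters in capitals.
Hspa5 (chr2:34772025-34772043, + strand): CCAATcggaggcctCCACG
Hsp90b1, first (chr10:86705638-86705656, - strand): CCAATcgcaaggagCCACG
Hsp90b1, second (chr10:86705533-86705551, + strand): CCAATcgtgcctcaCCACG
Calr (chr8:84847075-84847093, + strand): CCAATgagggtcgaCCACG
Pdia6 (chr12:17266491-17266509, + strand): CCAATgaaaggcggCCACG
Herpud1, ERSE-II (chr8:94386377-94386387, + strand): ATTGGgCCACG
The elements lay upstream of the gene start, 47 to 65 bases in Hspa5, 80 to 98 in Pdia6, 144 to 162 in Calr, 42 to 52 in Herpud1, and 89 to 107 and 194 to 212 in Hsp90b1. In Hspa5 and Pdia6 the motif pointed the same way as the gene and in Calr the opposite way, while Hsp90b1 had 1 in each orientation.

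Whole windows are given for Hspa5, the best known target of the response, and for Calr, the gene with the steadiest difference between the genotypes, each in the direction of transcription with the fixed letters of ERSE in capitals. On the gene strand the element of Calr appears as its reverse complement.
Hspa5 (GRCm38.p6 chr2:34771840-34772139, + strand): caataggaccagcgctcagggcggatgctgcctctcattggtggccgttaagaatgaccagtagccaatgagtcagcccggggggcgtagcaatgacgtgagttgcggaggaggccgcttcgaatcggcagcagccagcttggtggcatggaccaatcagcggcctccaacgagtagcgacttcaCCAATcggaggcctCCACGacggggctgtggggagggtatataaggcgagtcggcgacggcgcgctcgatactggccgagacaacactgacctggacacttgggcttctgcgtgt
Calr (GRCm38.p6 chr8:84846882-84847181, - strand): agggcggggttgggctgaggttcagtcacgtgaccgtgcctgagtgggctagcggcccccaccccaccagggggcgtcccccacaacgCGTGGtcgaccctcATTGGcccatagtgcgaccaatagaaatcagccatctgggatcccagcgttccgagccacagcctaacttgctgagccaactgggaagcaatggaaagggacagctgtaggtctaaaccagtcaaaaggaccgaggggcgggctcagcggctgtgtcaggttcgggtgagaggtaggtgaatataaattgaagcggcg
Both genes carry 1 ERSE, and their readings on the arrays differed, as the values below show.

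**Figure D1:**
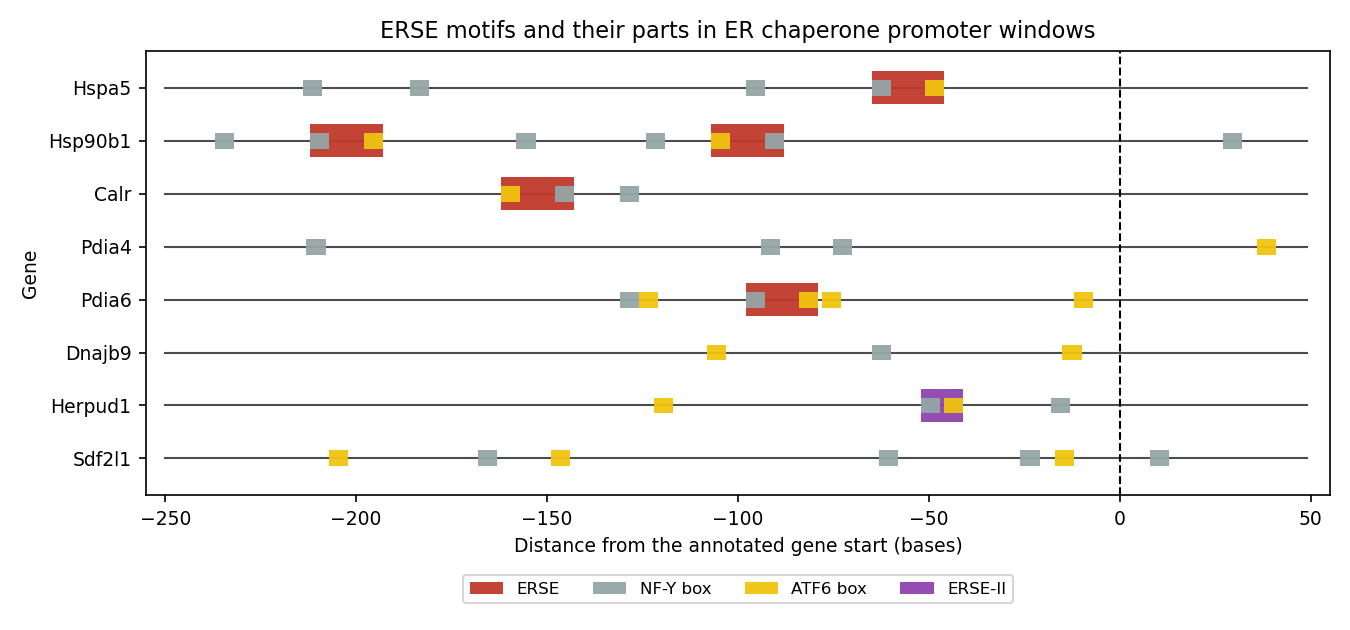
Motif positions in the promoter windows of 8 ER chaperone genes, with distance from the annotated gene start in bases on the horizontal axis and 1 line per gene. Red blocks are ERSE, the purple block is ERSE-II, and grey and yellow blocks are the NF-Y and Atf6 boxes alone or within them; 4 windows hold an ERSE and all 8 hold each box.

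On the arrays, 17 of the 20 probe sets passed the filter for testing, a value of 4 or more on 2 or more arrays, and each of the 10 genes kept at least 1 of them. The 3 that did not, 1 each of Pdia4, Pdia6 and Hyou1, read 2.30 to 2.41 on all arrays, near the floor of 2.30. In the genotype comparison with limma, 0 of the 17 passed an adjusted p of 0.05 (smallest adjusted p 0.794), as did 0% of all 17228 tested probe sets. At an unadjusted p under 0.05 there were 4 of 17, all lower in KO, where 3.01% of all tested probe sets were lower at that threshold and 5.14% passed in either direction. The count was 1 of 17 without KO replicate 1 (0.981% of all tested probe sets), 0 without KO replicate 2 (1.19%), 4 without WT replicate 1 (12%) and 6 without WT replicate 2 (37.8%). In each of these fits the spread comes from the other genotype's pair alone, and the lone array is assumed to vary like it. These 4 belong to 2 genes, 3 to Calr and 1 to Hyou1, and probe sets of 1 gene read the same transcript. With the brightest probe set standing for each gene, 1 of 10 genes, Calr, passed the unadjusted threshold, against 5.06% of 10110 genes, and the median difference was 0.00 over the 10 genes and -0.05 over all. An exact two-sided permutation test of 2 arrays against 2 cannot go below p = 0.333, so no such p is given for single genes.

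**Figure D2:**
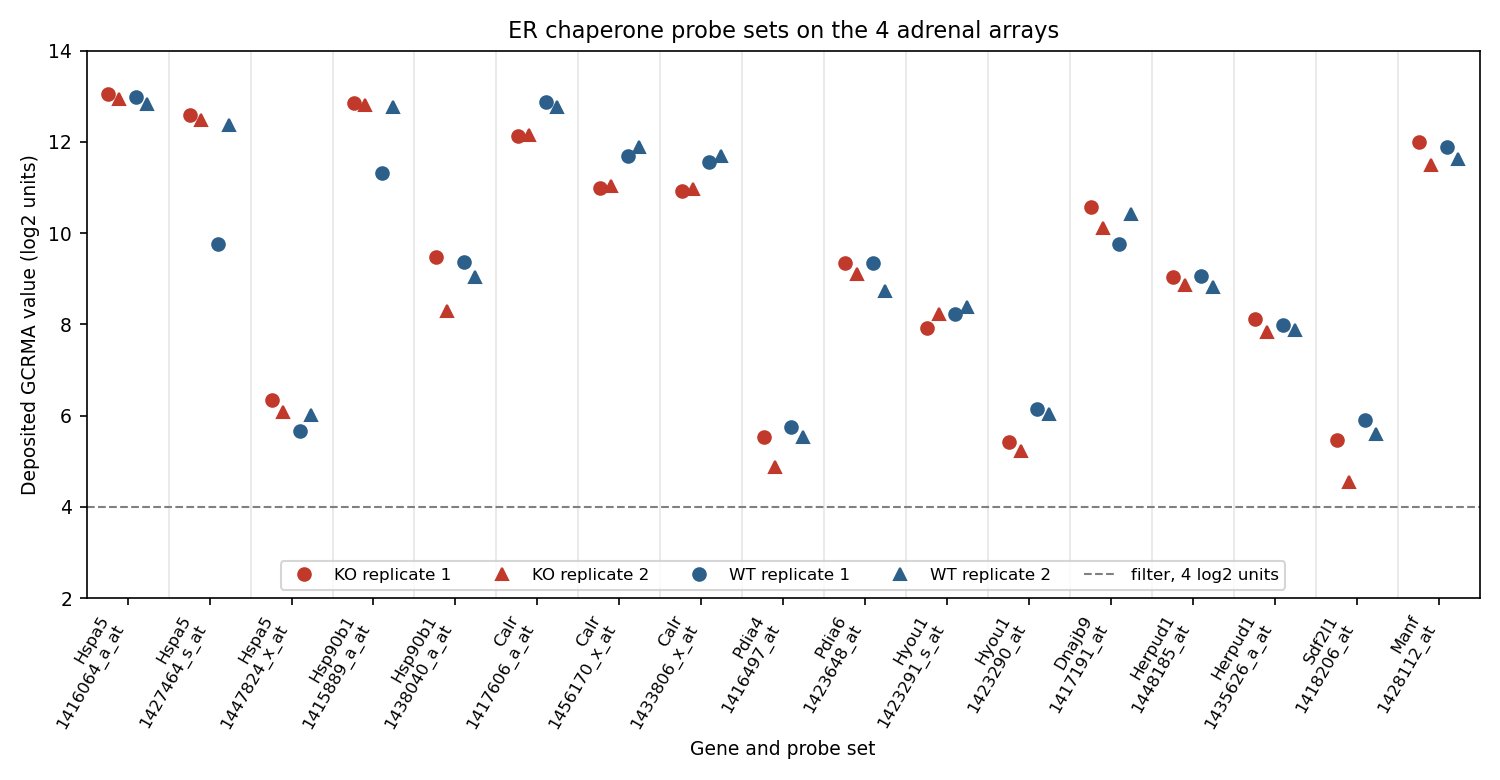
Deposited log2 values of the 17 tested ER chaperone probe sets, with KO arrays in red left of WT arrays in blue; circles are replicate 1, triangles replicate 2, and the dashed line is the filter at 4. All 3 Calr probe sets have both KO arrays below both WT arrays, while WT replicate 1 is the low point for the second Hspa5 and the first Hsp90b1 probe set.

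Array quality bears on what follows. WT replicate 1 stood apart: over tested probe sets it correlated with the other arrays at 0.919 to 0.924, while these correlated with each other at 0.974 to 0.986, a description across probe sets. The 3′ minus 5′ signal of the Gapdh control was 0.39 and 0.63 on the KO arrays and 0.80 and 0.60 on the WT arrays, and that of the Actb control 2.19 and 2.63 against 2.12 and 2.46. Liver genes read on WT replicate 1, among them Alb at 8.86 against 2.42 to 2.43 on the other arrays. The summed signal of immediate-early genes was 14.73 log2 units on WT replicate 1 and 12.79 to 13.67 on the others. For cytosolic heat shock genes it was 15.74 against 15.04 to 15.20. Hspa1a read 11.52 on WT replicate 1 against 7.65 to 8.39, but Hspa4 was lowest there, at 10.11. The part of these signals in the chaperone values was not tested. Avpr1a, which encodes the missing receptor, read 2.31 to 2.60 on every array of either genotype and so does not check the labels. Markers of the labelled tissue were read: all 8 cortex genes and all 7 chromaffin genes on the array were above the filter.

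Calreticulin was the ER chaperone whose reading separated the genotypes most steadily. Calr encodes a lectin chaperone that binds glycoproteins with trimmed sugar chains and stores calcium in the ER. Its brightest probe set (1417606_a_at) read 12.13 and 12.16 on the KO arrays, against 12.88 and 12.76 on the WT arrays. Both KO arrays lay below both WT arrays, and the gap was wider than the distance between arrays of 1 genotype. The means were 12.14 ± 0.02 in KO and 12.82 ± 0.09 in WT (SD, n = 2 each), a difference of -0.68 (SE 0.16, 95% interval -1.14 to -0.22). On the linear scale the KO signal was 0.625 of the WT signal, with an unadjusted p of 0.0157 and an adjusted p of 0.794 in limma.

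The other Calr probe sets gave the same picture. One (1456170_x_at) read 10.99 and 11.03 in KO and 11.70 and 11.88 in WT, a difference of -0.78 (SE 0.17). The last (1433806_x_at) read 10.93 and 10.96 in KO and 11.56 and 11.70 in WT, a difference of -0.68 (SE 0.16). Both have the suffix _x_at, which the manufacturer gives to probe sets whose probes can also match other transcripts, while the first has the suffix of a set shared by transcripts of 1 gene. Across the 3 probe sets the difference lay between -0.87 and -0.62 without WT replicate 1 and between -0.74 and -0.61 without WT replicate 2. Without KO replicate 1 or without KO replicate 2 the sizes were -0.79 to -0.66, but limma's unadjusted p was 0.0927 to 0.125.

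Some marker genes of other cells differed between the genotypes beside Calr, and their part in its difference was not tested. The summed signal of the 8 liver genes was 5.61 and 5.51 log2 units on the KO arrays and 10.45 and 7.53 on the WT arrays. Of these genes only Serpina1b passed the filter, at 2.30 and 2.30 in KO and 7.97 and 7.20 in WT, and 3 of the 8 were below it on every array. On WT replicate 2 the other liver genes were near the floor, with Alb at 2.42, Apoa1 at 2.51 and Ttr at 2.30. The 8 macrophage genes, all tested, summed to 12.52 and 13.09 in KO and 11.95 and 12.28 in WT. Ctss, Cd68 and C1qb were higher on both KO arrays, but Csf1r was lower on both (-0.22) and Adgre1 had a lower mean (-0.17). C1qb differed by 2.36, and by 0.53 without WT replicate 1. The other tested probe sets of C1qb differed by -0.08 and 0.58, and those of Csf1r by -0.47 and 0.01. The 8 plasma and B cell genes, 5 of them below the filter on every array and among these Cd79a at 2.30, summed to 9.86 and 9.58 in KO and 9.05 and 7.47 in WT. Ighm was the brightest of them, with a difference of 2.10 and of 1.52 and 0.00 on its other tested probe sets, while Jchain differed by -0.61. Cortex genes summed to 16.46 and 16.39 in KO and 16.50 and 16.48 in WT, a much smaller gap. Sums of chromaffin, exocrine pancreas and immediate-early genes overlapped between the genotypes. The WT arrays were far apart in the immediate-early sum, at 14.73 and 12.79. The sum of the 6 fat genes on the array also overlapped, at 12.28 and 13.40 in KO and 13.28 and 12.79 in WT, with Fabp4 the brightest. Its brown fat genes were lower on both KO arrays: Ucp1 read 2.80 and 5.91 in KO and 10.05 and 7.24 in WT, and Cidea read 3.37 and 6.06 in KO and 9.78 and 6.78 in WT. The fat gene Lep was at 2.30 on every array.

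Among the partners of the Hsp70 chaperone, Hyou1 had a lower mean in KO on both tested probe sets and passed the unadjusted threshold on 1. Hyou1 encodes a large Hsp70-like protein that exchanges nucleotide on the Hspa5 product. The dimmer probe set (1423290_at) read 5.43 and 5.23 in KO and 6.15 and 6.03 in WT, a difference of -0.76 (SE 0.18, 95% interval -1.26 to -0.25, limma unadjusted p = 0.0148, adjusted p = 0.794). Here the KO signal was 0.592 of the WT signal and the groups were well apart. Without KO replicate 1 the difference was -0.86 and without KO replicate 2 it was -0.65, with limma unadjusted p of 0.0751 and 0.127. The brighter probe set (1423291_s_at) read 7.93 and 8.22 in KO and 8.24 and 8.38 in WT, a difference of -0.23 (SE 0.19, limma unadjusted p = 0.298). KO replicate 2 and WT replicate 1 nearly met there, so the 2 sets share a direction and differ in size.

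Hspa5, which encodes the Hsp70 chaperone BiP that binds unfolded chains and keeps the stress sensors inactive, showed no difference beyond the spread on its brightest probe set. That set (1416064_a_at) read 13.05 and 12.95 in KO and 12.98 and 12.83 in WT. The values of the genotypes overlapped, and the difference was 0.10 (SE 0.17, 95% interval -0.38 to 0.57, limma unadjusted p = 0.599). The second Hspa5 probe set (1427464_s_at) read 12.60 and 12.49 in KO and 9.77 and 12.38 in WT. WT replicate 1 alone set its difference of 1.47 (SE 0.97), which was 0.16 without that array and 2.77 without WT replicate 2. The third (1447824_x_at) read 6.34 and 6.09 in KO and 5.67 and 6.01 in WT, a difference of 0.38 (SE 0.22), and 0.21 without WT replicate 1. All 3 sets thus had a higher mean in KO, and without WT replicate 1 none was more than 0.21 higher.

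Hsp90b1, the Hsp90 of the ER (GRP94), had the same low point. Its brighter probe set (1415889_a_at) read 12.86 and 12.81 in KO and 11.33 and 12.77 in WT. The difference of 0.78 (SE 0.55, limma unadjusted p = 0.233) was 0.06 without WT replicate 1 and 1.51 without WT replicate 2. WT replicate 1 was the only low array of the 4. The dimmer set (1438040_a_at) read 9.47 and 8.29 in KO and 9.36 and 9.03 in WT, a difference of -0.32 (SE 0.47). There the KO arrays were the ones far apart, and without KO replicate 2 the difference was 0.27. The probe sets of this gene thus gave opposite signs, and 1 array carried most of each difference.

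The small co-chaperones and cofactors of BiP varied within the KO pair, and Dnajb9 varied more within the WT pair. Dnajb9, a J-domain protein that stimulates the ATPase of BiP, read 10.57 and 10.12 in KO and 9.77 and 10.43 in WT. The groups overlapped, with a difference of 0.24 (SE 0.33), and of -0.08 without WT replicate 1. Sdf2l1, which works with BiP and an ER J-domain protein, read 5.47 and 4.55 in KO and 5.90 and 5.59 in WT. The groups were narrowly apart, and the difference of -0.73 (SE 0.38, 95% interval -1.83 to 0.37, limma unadjusted p = 0.134) was -0.28 without KO replicate 2 and -1.19 without KO replicate 1. Manf, a small protein of the ER that binds BiP and can be secreted, read 12.00 and 11.49 in KO and 11.90 and 11.63 in WT. Its arrays interleaved, and the difference was -0.02 (SE 0.26, 95% interval -0.76 to 0.73).

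The disulfide isomerases Pdia4 and Pdia6 overlapped between the genotypes. Pdia4 (ERp72) read 5.54 and 4.88 in KO and 5.76 and 5.54 in WT, a difference of -0.44 (SE 0.30, limma unadjusted p = 0.221). KO replicate 2 was the low point, and without it the difference was -0.11. Pdia6 (P5), which also acts on the sensor Ern1, read 9.34 and 9.10 in KO and 9.35 and 8.73 in WT. The KO values lay between the WT values, with a difference of 0.17 (SE 0.29), which was 0.48 without WT replicate 1 and -0.13 without WT replicate 2. Herpud1, a membrane protein of the degradation complex, had the smallest difference of the 10 on its brighter probe set. That set read 9.05 and 8.86 in KO and 9.06 and 8.83 in WT, a difference of 0.01 (SE 0.19, 95% interval -0.52 to 0.55), and the other set differed by 0.05 (SE 0.19).

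**Figure D3:**
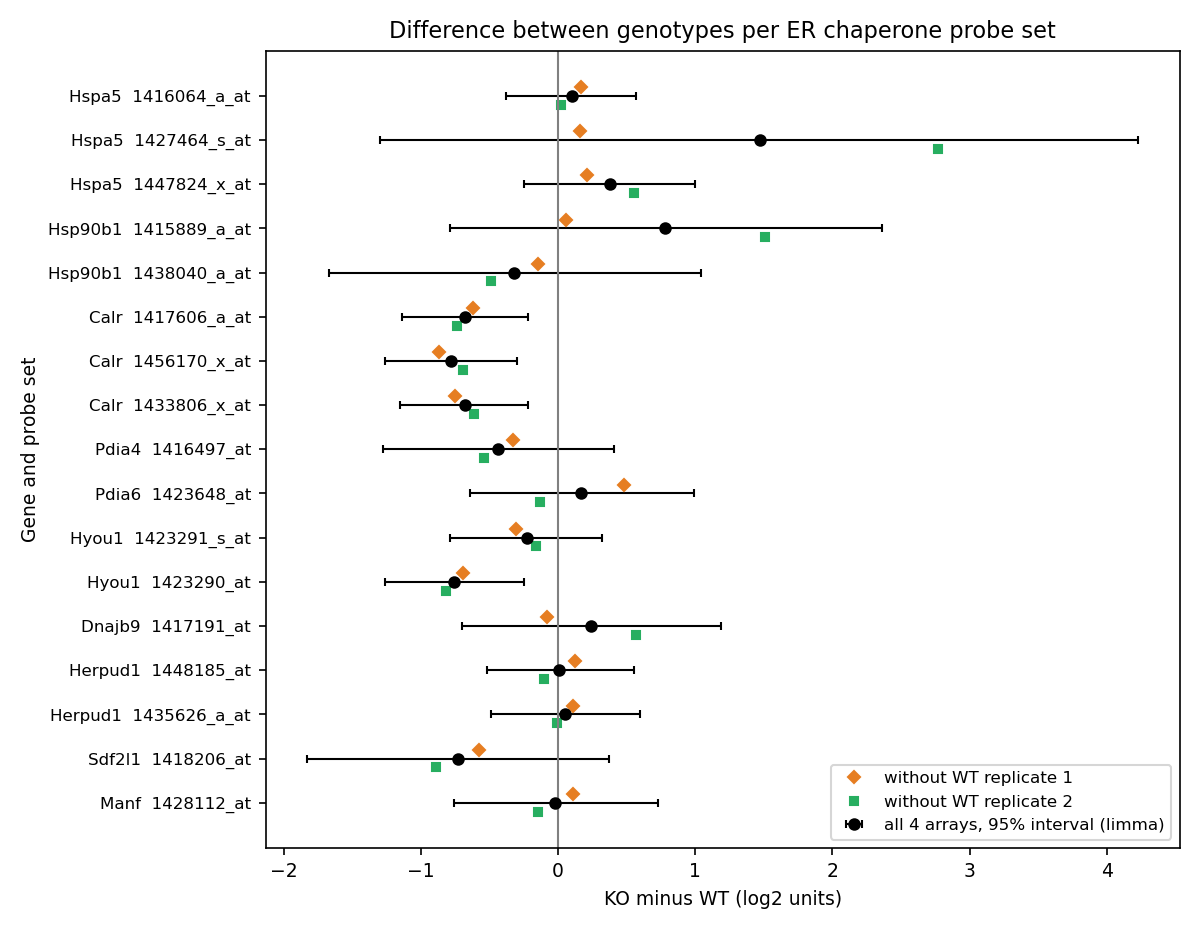
KO minus WT difference in log2 units for each tested ER chaperone probe set. Black points are all 4 arrays with limma's 95% interval, orange diamonds leave out WT replicate 1 and green squares WT replicate 2; the intervals of the 3 Calr sets and 1 Hyou1 set lie below 0, and the second Hspa5 set moves between 0.16 and 2.77.

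Taken over the 17 probe sets, 9 had a lower mean in KO and 8 a higher mean. Both KO arrays lay below both WT arrays in 6 and above them in 3, while over all tested probe sets these shares were 20% and 17.4%. Several of these probe sets read the same gene. With the brightest probe set per gene, 3 of the 10 genes lay lower in this way and 1 higher, against 20.5% and 17.1% of all genes. The median distance between the KO arrays was 0.24 over the 17 and 0.15 over all tested probe sets. KO replicate 1 was the higher KO array in 13 of the 17, against 48.9% of all, and KO replicate 2 was the lowest of the 4 arrays in 6, against 18.8%. Chromaffin markers had the same order, with a median of 0.79 for KO replicate 1 minus KO replicate 2, and the part of this in the chaperone values was not tested. The WT arrays were 0.22 apart in the median over the 17 and 0.44 over all.

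Other factors that fold proteins in the ER lay mostly lower in KO. Of 29 genes listed, 28 were tested, 24 of them with a lower mean in KO, against 56% of all tested genes, and the median was -0.27, against -0.05 over all. Without WT replicate 1, 21 of the 28 had a lower mean, against 42.9% of all genes. Both KO arrays lay below both WT arrays in 15 of the 28 and above them in 1, where 20.5% and 17.1% of all genes did so. Without WT replicate 1 the count lower was 16 of 28, against 31.9% of all genes, and the median was -0.10, against 0.04. At an unadjusted p under 0.05 there were 2 of 28, both lower, against 2.93% of all genes lower, and 0 passed adjustment in limma.

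The 4 genes of this list with the smallest p were Fkbp11, Fkbp7, Prdx4 and Ppib, of which the first and second passed the unadjusted threshold. Fkbp11, a prolyl isomerase of secretory cells, read 4.68 and 4.95 in KO and 5.78 and 5.61 in WT, a difference of -0.88 (SE 0.19). Fkbp7, another of this family, read 9.05 and 9.06 in KO and 9.53 and 9.80 in WT, a difference of -0.61 (SE 0.18). Ppib, a cyclophilin that acts on collagen chains, read 12.40 and 12.57 in KO and 12.90 and 13.03 in WT, a difference of -0.48 (SE 0.17). In all 3 genes both KO arrays were the lower ones, though for Ppib limma's unadjusted p was 0.0546. Of the same family as Fkbp11, Fkbp14 differed by 0.11 and Fkbp2 by -0.43, with limma unadjusted p of 0.632 and 0.205. The disulfide isomerases Pdia5, Erp44 and P4hb were lower on both KO arrays, by differences of -0.37, -0.53 and -0.18, and none passed the unadjusted threshold. Tmx1, of the same family, was also lower on both, by -0.09, but its other tested probe set differed by 0.44. Its relatives Pdia3, Txndc5, Txndc11, Dnajc10 and Erp29 overlapped between the genotypes, with differences of -0.06, -0.35, 0.13, -0.16 and -0.44. The other probe set of Erp44 differed by 0.21. Prdx4, an ER peroxidase that feeds oxidation to disulfide isomerases, differed by -0.49 (SE 0.18), but its other tested probe sets by 1.30 and 0.15.

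Sensors and transcription factors of the response lay on either side of 0. Of 15 genes, all tested, 8 had a lower and 7 a higher mean in KO, against 56% of all tested genes lower. In limma 0 passed an unadjusted p of 0.05 or adjustment. The median was -0.14, against -0.05 over all genes, and without WT replicate 1 it was 0.01, against 0.04. Creb3, a membrane-bound transcription factor, differed by -0.33 (SE 0.16), and its other tested probe sets by -0.96 and -0.05. Eif2ak3, the sensor kinase PERK, differed by 0.29 (SE 0.19, and 0.14 without WT replicate 1) and Ddit3, the transcription factor CHOP, by -0.22 (SE 0.16). Creb3l1 differed by -0.67 (SE 0.46). It read 5.06 and 6.23 in KO and 6.39 and 6.24 in WT, with only KO replicate 1 far from the other arrays. In limma the smallest unadjusted p of the list was 0.12, in Creb3 (adjusted p = 0.794).

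Degradation from the ER had 21 tested genes, 13 lower and 8 higher, against 56% of all tested genes lower. The median was -0.15, against -0.05 over all genes, and without WT replicate 1 it was 0.01, against 0.04. Derl2, a membrane protein of the export channel, read 9.51 and 9.61 in KO and 10.02 and 10.19 in WT, a difference of -0.54 (SE 0.17, limma unadjusted p = 0.0369), the only one of the 21 at that threshold, near the 5.06% of all genes. Erlec1, a lectin, differed by -0.47 (SE 0.22, and -0.26 without WT replicate 1), Fam8a1, a cofactor of the ligase complex, by 0.60 (SE 0.29) and Herpud2, a relative of Herpud1, by 0.95 (SE 0.48). Their other tested probe sets differed by -0.06 and 0.28 in Erlec1, by -0.04 in Fam8a1 and by 0.25 and 1.18 in Herpud2. In Fam8a1 and Herpud2 WT replicate 1 was the lowest array, and without it the differences were 0.26 and 0.33.

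Targets of PERK and Atf4 had 19 tested genes, 14 lower and 5 higher, against 56% of all tested genes lower. The median was -0.10, against -0.05 over all genes, and without WT replicate 1 it was 0.06, against 0.04. Asns, the asparagine synthetase, read 7.38 and 7.34 in KO and 8.07 and 7.97 in WT, a difference of -0.67 (SE 0.16, limma unadjusted p = 0.0161), and its other probe set differed by -1.28. Its groups were well apart. It was the 1 gene of 19 at the unadjusted threshold, near the 5.06% of all genes. Ddit4, an inhibitor of mTORC1, differed by -0.75 (SE 0.47), Cebpb by -0.52 (SE 0.35) and Sesn2, a stress-induced regulator of mTORC1, by 0.58 (SE 0.40). Without WT replicate 1 these differences were -0.21, -0.09 and 1.07.

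Entry into the ER and N-glycosylation had 29 tested genes, 19 lower and 10 higher, against 56% of all tested genes lower. The median was -0.05, the same as over all genes. Both KO arrays lay below both WT arrays in 10 of the 29 and above them in 3, where 20.5% and 17.1% of all genes did so. Without WT replicate 1, 18 had a lower mean, against 42.9% of all genes, and the median was -0.03, against 0.04. Ssr4, a subunit of the translocon-associated complex, read 10.18 and 10.31 in KO and 10.96 and 10.84 in WT, a difference of -0.65 (SE 0.17, limma unadjusted p = 0.0196), though its other probe set differed by -0.04. Srp19, a protein of the signal recognition particle, read 9.93 and 9.91 in KO and 10.46 and 10.40 in WT, a difference of -0.51 (SE 0.16, limma unadjusted p = 0.0345). In both genes the arrays of each genotype lay close together and the genotypes apart. They were the 2 genes of 29 at that threshold, which 5.06% of all genes passed. Dad1 and Ost4, subunits of the oligosaccharyl transferase, differed by -0.64 (SE 0.32) and -0.30 (SE 0.17), and without WT replicate 1 by -0.26 and -0.37.

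Chaperones of the cytosol, for comparison, had 13 tested genes, 11 lower and 2 higher, against 56% of all tested genes lower. The median was -0.25, against -0.05 over all genes. Without WT replicate 1, 7 were lower, against 42.9% of all genes, and the median was -0.01, against 0.04. Hsph1, an exchange factor for Hsp70, differed by -0.79 (SE 0.37), Hspa4, of the same family, by 0.37 (SE 0.19), Stip1, which bridges Hsp70 and Hsp90, by -0.24 (SE 0.17) and Hspb1, a small heat shock protein, by -0.67 (SE 0.50). Without WT replicate 1 Hsph1 differed by -0.36 and Hspb1 by -0.06. At the unadjusted threshold in limma 0 of the 13 passed, and 0 passed adjustment. A difference in behaviour between the lists was not tested.

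**Figure D4:**
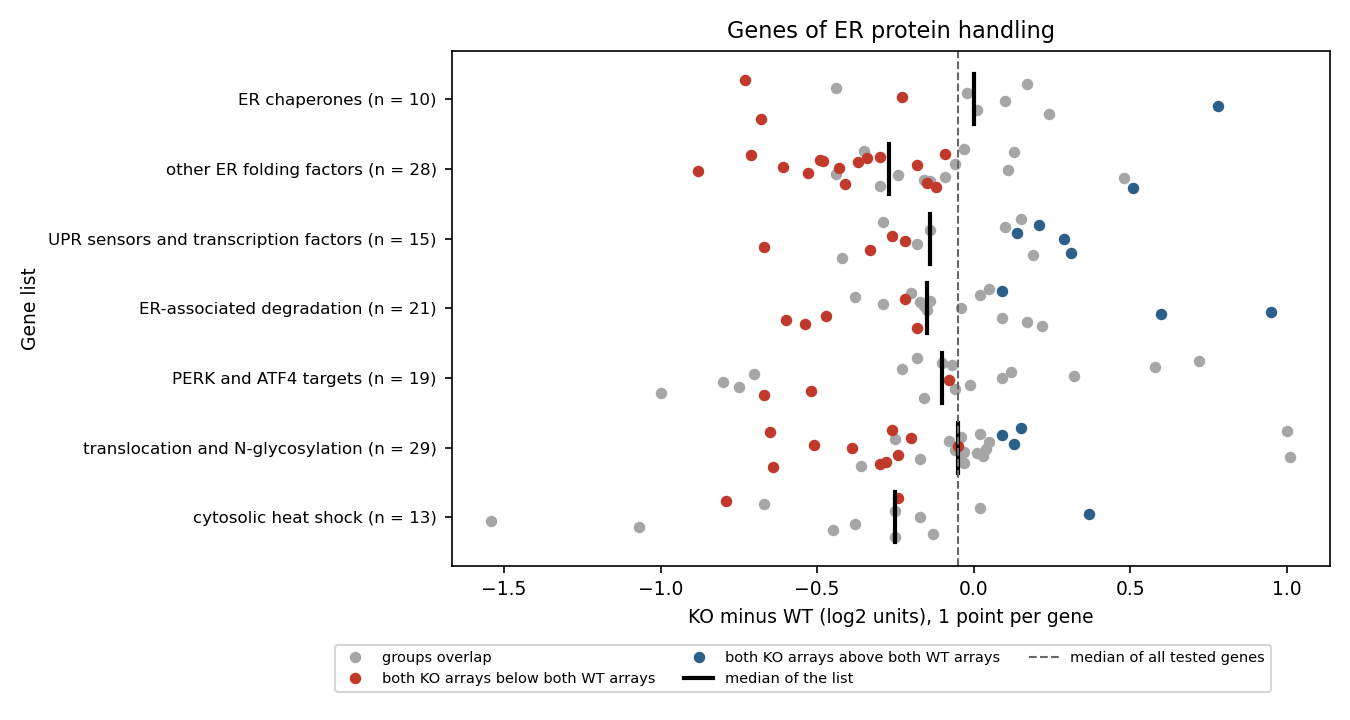
KO minus WT difference in log2 units of every tested gene in 7 lists, 1 point per gene, with the list's median as a black bar and the median of all tested genes, -0.05, as a dashed line. Red points have both KO arrays below both WT arrays and blue points above; the ER chaperones have a median of 0.00 and the other ER folding factors one of -0.27.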

How the data were processed

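RNA of adrenal glands was hybridised to Affymetrix Mouse Genome 430 2.0 arrays. Per the labels' protocols, the authors made the deposited log2 values from the array files with GCRMA in Bioconductor 3.14, a method that corrects background by probe composition and gives normalized summaries per probe set. The log2 scale was read from the values (2.30 to 14.9), and the GCRMA version is not given in the sources used here. The values were used as they stand. Manufacturer's controls were dropped, and testing required 4 log2 units or more on 2 or more arrays. KO was compared with WT over all 17228 such sets with limma 3.58.1 (lmFit and eBayes in R 4.3.3, genotype only), with Benjamini-Hochberg adjustment. The number of arrays limits the precision. Genes were named from the platform annotation where a probe set had exactly 1 gene (34945 of 45037), and list symbols were matched through gene IDs of GRCm38.p6. Counts per gene used the brightest probe set of each gene. Named are all 10 chaperone genes, the 4 genes of smallest p in each other list, Avpr1a, and the defining marker genes that moved with a chaperone. Outside that rule, further genes of the folding factor, heat shock and marker lists and other genes with a motif are named. Each SD covers the 2 arrays of its group, and each SE is limma's. The genes and lists were chosen with earlier results of these data known. The fitting script was tested on simulated data. Alternatives were other filters, quantile normalization, centred arrays, a variance trend, a replicate block, plain probe sets, averaging over the sets of a gene and leaving out each array.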

Additional observations from a re-analysis of the deposited data

How the results depend on the processing

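Under quantile normalization, centred arrays, a filter at 6 log2 units or plain probe sets only, 2 probe sets of the whole array passed adjustment in limma, none of them an ER chaperone, against 0 as reported. At an unadjusted p under 0.05 there were 885, 1545 with no filter, and 169 to 6507 without single arrays. Chaperone probe sets at that threshold numbered 4 of 17, 1 of 7 with plain probe sets only, and 0 to 6 leaving out arrays: 1 without KO replicate 1, 0 without KO replicate 2, 4 without WT replicate 1 and 6 without WT replicate 2. The median over all 10 genes was 0.00 to 0.02 under the other settings and -0.14 to 0.13 without single arrays. It was 0.05 over the 8 genes left by the filter at 6 units and -0.02 over the 7 with plain probe sets. Manf changed sign to 0.01 under quantile normalization and centred arrays. Leaving out arrays turned the sign in Manf (-0.27 to 0.24), Herpud1 (-0.10 to 0.12), Pdia6 (-0.13 to 0.48) and Dnajb9 (-0.08 to 0.57), none of which passed the threshold there, and the cause was not tested. Calr stayed at -0.74 to -0.62. The counts of genes whose groups did not overlap without each array were added after seeing the data: 3 to 6 of 10 chaperones and 16 to 21 of 28 other folding factors lay lower, where 29.8% to 54.3% of all genes did. Also added then were medians of other genes with a motif: without single arrays these were -0.30 to 0.03 for ERSE and -0.13 to 0.31 for ERSE-II, and leaving out WT replicate 1 turned both signs, to 0.03 and -0.13. With the replicate number as a block, a pairing that the labels do not explain, limma passed 0 adjusted and 684 unadjusted, and 4 of the 17. Same-numbered arrays deviated together at a correlation of 0.154 across probe sets.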

Other observations

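The ERSE was also found in the windows of 33 other genes, of which 9 were tested on the arrays. Several of these encode proteins of the same compartment. Creld2, an ER-resident protein raised by unfolded protein, read 8.65 and 8.55 in KO and 9.19 and 8.83 in WT, and Syvn1, the ubiquitin ligase of ER degradation, read 8.63 and 8.53 in KO and 8.88 and 8.73 in WT. Alg12, a mannosyltransferase of glycan assembly, read 4.26 and 4.10 in KO and 4.75 and 4.55 in WT. In these 3 genes both KO arrays lay below both WT arrays, by differences of -0.41, -0.22 and -0.47. They were 3 of the 9, where 20.5% of all tested genes lay lower in this way. Canx, the membrane-bound relative of calreticulin, differed by 0.51 and Dnajc3, an ER J-domain protein, by 0.48, with WT replicate 1 the lowest array in each, at 11.00 and 8.02. The other tested probe sets of Canx differed by 0.15 and -0.15, and those of Dnajc3 by -0.14, -0.39, -0.47 and 0.30. Over the 9 genes the median was -0.22, 6 had a lower mean in KO, against 56% of all tested genes, and 0 reached an unadjusted p of 0.05 in limma. WT replicate 1 set this sign: without it the median was 0.03 and 4 of the 9 were lower. The variant ERSE-II was found in 11 other genes, 7 of them tested, with a median of 0.17, which was -0.13 without WT replicate 1. Rbm39, Lrif1 and Lgalsl were lowest on that array, and their differences of 0.94, 0.57 and 1.19 were -0.20, -0.51 and 0.03 without it. Krtcap2, a subunit of the oligosaccharyl transferase, read 9.73 and 9.87 in KO and 10.55 and 10.36 in WT, a difference of -0.65 (SE 0.18, limma unadjusted p = 0.0234, adjusted p = 0.794). It was the only one of the 7 at that threshold, where 5.06% of all tested genes stood. These genes were looked up after the values of the chaperones were seen.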
